A study of Mus musculus with 10 samples.

Results

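Lin28a, Lin28b, Hmga1, Hmga2, Igf2bp1, Igf2bp2, Igf2bp3, Arid3a and Plagl1 are genes linked to a circuit that is active in fetal blood stem cells. Not all are shut in adult cells: by their brightest probes Lin28a, Hmga1, Hmga2, Igf2bp2, Arid3a and Plagl1 were well above background on both wild type (WT) arrays here. All 9 genes were chosen by name: every probe whose RefSeq accession belonged to 1 of them was taken. This gave 18 of 55681 probes, and 9 of the 20972 genes that could be named on the array. Lin28a and Lin28b are RNA-binding proteins that block the maturation of let-7 microRNAs. Mature let-7 in turn represses mRNAs that carry its seed match, among them those of Hmga2, Igf2bp1 to Igf2bp3, Arid3a and Lin28b itself. Hmga1 and Hmga2 are small chromatin proteins that bend DNA, the Igf2bp proteins bind and stabilise mRNAs, Arid3a is a DNA-binding protein of fetal-type B cell development, and Plagl1 is an imprinted zinc finger transcription factor.

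The RNA came from donor-derived (CD45.2-sorted) LSK cells, the bone marrow gate (lineage markers absent, Sca-1 and c-Kit present) that holds blood stem and progenitor cells, taken from transplanted C57BL/6 mice. KO cells were Cre-Ert;Ezh2fl/fl and WT cells were Cre-Ert, and tamoxifen was given to both, so Cre activation was shared and the groups differed in the deletion of Ezh2, which encodes the Polycomb enzyme that methylates lysine 27 of histone H3. There were 7 KO arrays at 9-12 months after transplantation: 3 labelled MDS/MPN (a myelodysplastic syndrome with myeloproliferation, of which array 1 carries the further label TC and array 3 CMMoL), 2 labelled MDS, 1 of undetermined disease and 1 labelled with a mixture of diseases. There was 1 KO array at 3 months without disease, 1 WT array at 9-12 months and 1 WT array at 3 months. Each group at 3 months and each WT group is thus 1 array. The labels do not say whether an array holds 1 mouse or a pool, so p-values measure only the spread between these arrays.

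Levels are log2 signal over the 75th percentile of the array, so 0 is the level below which 75% of the probes lie. Between 32.5% and 47.5% of probes were well above background, and the 75th percentile of intensity ranged from 78.7 to 301.7 without a saturated probe. The detection limit differed between arrays: the lowest level at which a probe was well above background lay at -3.69 on MDS/MPN array 2, the brightest, and at -1.51 on MDS/MPN array 1. The 2 arrays at 3 months shared slide 1 and the other 8 shared slide 2, so time and slide cannot be told apart. On slide 2 the MDS/MPN and undetermined arrays sat on 1 line and the MDS, mixed and WT arrays on the other. The deposited value table carries the time labels of 4 arrays exchanged between the slides, whereas the genotype labels are the same in both sources. The times given here are those of the scanner files. Ezh2 itself read 2.13 to 3.35 on the 8 KO arrays and 2.63 and 2.13 on the WT arrays. Where its probe lies relative to the deleted exons is not given, so this value does not check the labels. The LSK gate was present on every array, with 8 to 10 of 10 gate markers well above background on KO arrays and 9 to 10 of 10 on WT arrays.

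Lin28 proteins act on let-7 through its precursor, and the sequences they act on are shown here from RefSeq (GRCm38.p6). The 9 mature 5p microRNAs of the family share 1 seed, bases 2 to 8, in capitals:
let-7a: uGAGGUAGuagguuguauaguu
let-7b: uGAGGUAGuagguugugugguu
let-7c: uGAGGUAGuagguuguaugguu
let-7d: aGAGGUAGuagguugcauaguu
let-7e: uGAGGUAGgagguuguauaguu
let-7f: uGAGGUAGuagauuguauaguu
let-7g: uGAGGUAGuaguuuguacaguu
let-7i: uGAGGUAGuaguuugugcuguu
miR-98: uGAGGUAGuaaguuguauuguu
Lin28 is known to bind a GGAG in the loop of the precursor and to recruit the uridylating enzymes Tut4 and Tut7. These 4 letters occur between the mature arms in 9 of the 12 let-7 family hairpins, and are missing there from let-7b, let-7c-2 and miR-98. A hairpin with the letters (let-7g, chr9:106178840-106178927, plus strand) and one without (let-7b, chr15:85707319-85707403, plus strand) are set side by side, with GGAG in capitals:
let-7g: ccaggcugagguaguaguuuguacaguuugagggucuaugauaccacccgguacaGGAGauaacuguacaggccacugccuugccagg
let-7b: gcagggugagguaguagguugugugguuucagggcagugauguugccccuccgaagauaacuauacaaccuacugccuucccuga
Let-7 itself was not measured here, so only the mRNA side of the circuit is described.

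Of the regulators at the head of the circuit, the Lin28a probe was steady over the KO arrays but not between the WT arrays, and Lin28b was near the limit of detection. Lin28a read 0.49, 0.08 and 0.66 on MDS/MPN arrays 1 to 3, 0.54 and 0.83 on the MDS arrays, 0.37 on the undetermined, 0.71 on the mixed and 0.71 on the 3-month KO array, against 0.49 on the WT array at 9-12 months and 1.33 on that at 3 months. All 10 arrays were well above background, and the highest value was that of the 3-month WT array. Over the 8 KO arrays Lin28a had an SD of 0.24 log2, and 5.0% of the 18414 features measured on KO arrays varied less, where the median SD was 0.52. At 9-12 months KO minus WT was -0.0008 ± 0.42 log2 (limma, SE, n = 6 and 1, adjusted p = 0.9999), and -0.83 with the time labels of the value table. Over both slides, with the slide as a block, it was -0.21 ± 0.31 log2 (limma, SE, n = 8 and 2, adjusted p = 0.976). Within the slides it was -0.62 at 3 months, 1 array against 1, and 0.03 on slide 2, so the difference rested on the 3-month pair. MDS/MPN minus MDS was -0.28 ± 0.36 (limma, SE, n = 3 and 2, adjusted p = 0.993). Only this 1 probe represented Lin28a, so no second probe checks that its signal is Lin28a mRNA. Where on the transcript it lies was not examined.

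Lin28b, the Lin28 paralog of fetal liver stem cells, was well above background by its first probe on 1 of 10 arrays, that of undetermined disease, at -1.16. The other 7 KO arrays lay at -5.67 to -3.46 and the WT arrays at -3.82 and -5.09, none of them well above background. Against the WT array of its slide the undetermined array was at least 2.27-fold higher, with the WT signal raised to -2.35, the lowest level called on its array. Some signals above that level were still not called, such as Slc4a1 at -2.27 on that WT array. Folds of members given as at least a value, here and below, were computed in this way and are not strict bounds. The second Lin28b probe did not show this higher level: it read -4.29 on the undetermined array, not well above background. It was well above background only on MDS/MPN array 2, at -2.80. The probes thus named different arrays, and over 10 arrays their levels had a Pearson r of 0.02, for points that lie mostly at background. Lin28b did not pass the filter of any comparison. With no filter, KO minus WT at 9-12 months was -0.0054 log2, from levels mostly at background.

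**Figure D1:**
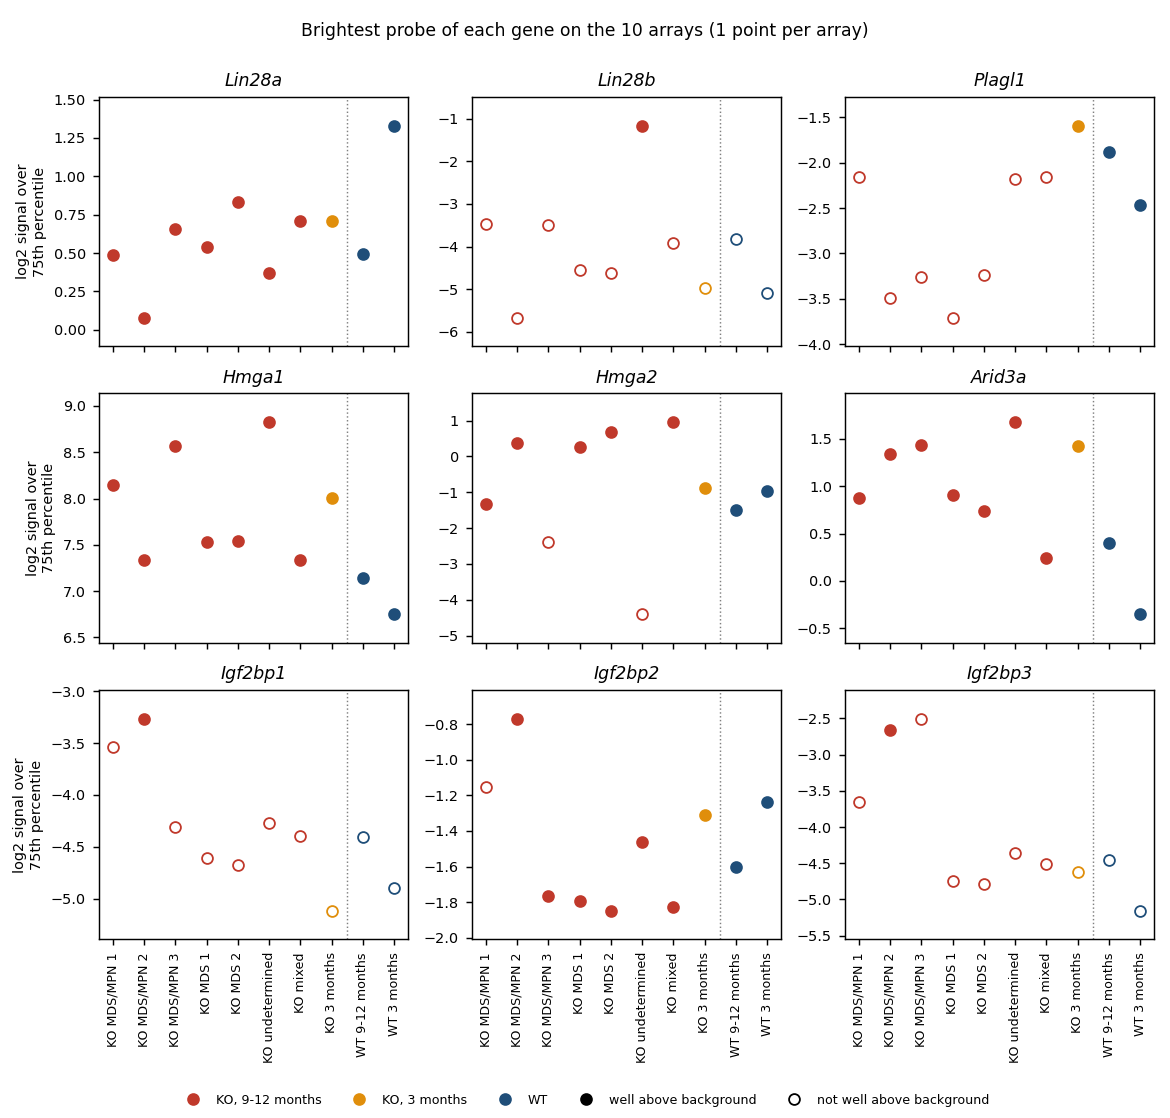
Level of each of the 9 genes by its brightest probe on the 10 arrays, in log2 signal over the 75th percentile of the array; filled points are well above background, open points are not, and the dotted line separates KO arrays (left) from WT arrays (right). Each panel has its own vertical scale. Lin28a, Hmga1 and Arid3a are filled on all 10 arrays, whereas Lin28b, Igf2bp1 and Igf2bp3 are filled on 1 array each.

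Hmga2, the chromatin protein known to support fetal stem cell self-renewal, varied most between KO arrays among the 5 members that were well above background on at least 6 of 8 of them. Its brighter probe read -1.34, 0.37 and -2.37 on MDS/MPN arrays 1 to 3, 0.26 and 0.69 on the MDS arrays, -4.40 on the undetermined, 0.96 on the mixed and -0.89 on the 3-month KO array, against -1.51 on the WT array at 9-12 months and -0.95 on that at 3 months. MDS/MPN array 3 and the undetermined array were not well above background, and the other 8 arrays were. KO arrays thus lay on both sides of the WT arrays, with 5 of 8 above both. The SD over 8 KO arrays was 1.83 log2, a value that 99.2% of the 18414 features stayed below, but it includes levels under the detection limit. With such values raised to the lowest level called on their array, for all features, it was 1.29 and 97.96% stayed below. The WT array of slide 2 was at least 1.64-fold above the undetermined array and at least 1.66-fold above MDS/MPN array 3.

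The second Hmga2 probe ran lower and ordered the arrays much as the first did, with a Pearson r of 0.85 over the 10 arrays. Both probes were well above background on only 4 of these arrays, so background levels are among the points. It was well above background on MDS/MPN array 2 at -1.50, MDS array 2 at -0.85, the mixed array at -0.83 and the 3-month WT array at -2.23. Against the WT array of slide 2, which was not well above background, these 3 KO arrays were at least 1.80, 2.83 and 2.85-fold higher. On slide 1 the direction was opposite, with the WT array at least 1.70-fold above the KO array. Both probes placed MDS array 2 and the mixed array highest and the undetermined array among the lowest.

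KO minus WT for Hmga2 was 0.45 ± 1.30 log2 over both slides (limma, SE, n = 8 and 2, adjusted p = 0.996) and 0.37 ± 1.67 at 9-12 months (n = 6 and 1, limma adjusted p = 0.9999). Its direction was not stable: at 9-12 months the value table with its own labels gave -0.18, and disease groups kept apart gave -0.17. Leaving out 1 array gave from 0.0093 (without MDS array 2) to 1.03 (without the undetermined array) at 9-12 months. Over both slides it gave from 0.06 (without the WT array at 9-12 months) to 0.82 (without the undetermined array). MDS/MPN minus MDS was -1.59 ± 0.81 log2 (limma, SE, n = 3 and 2, adjusted p = 0.991), from -1.34, 0.37 and -2.37 on the MDS/MPN arrays and 0.26 and 0.69 on the MDS arrays. MDS/MPN array 2 overlapped the MDS arrays, and the other two lay below them. Normexp gave -0.70, and leaving out arrays in turn gave from -2.33 (without MDS/MPN array 2) to -0.96 (without array 3). This comparison coincides with the line on the slide. The sum of the 10 LSK gate markers was also lower on the MDS/MPN arrays, at 7.90 to 8.10 log2, than on the MDS arrays, at 8.91 and 9.02. The 2 genes that name the gate differed in this. Kit was lower, at 3.90, 4.11 and 3.86 on MDS/MPN arrays 1 to 3 against 5.23 and 5.12 on the MDS arrays. Ly6a (Sca-1) was not, at 4.56, 4.85 and 5.20 against 4.57 and 4.25, so the sum does not count gate cells. The part of the cell mixture in the Hmga2 difference was not tested. In such bulk samples fewer cells of a type and less RNA per cell cannot be told apart.

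**Figure D2:**
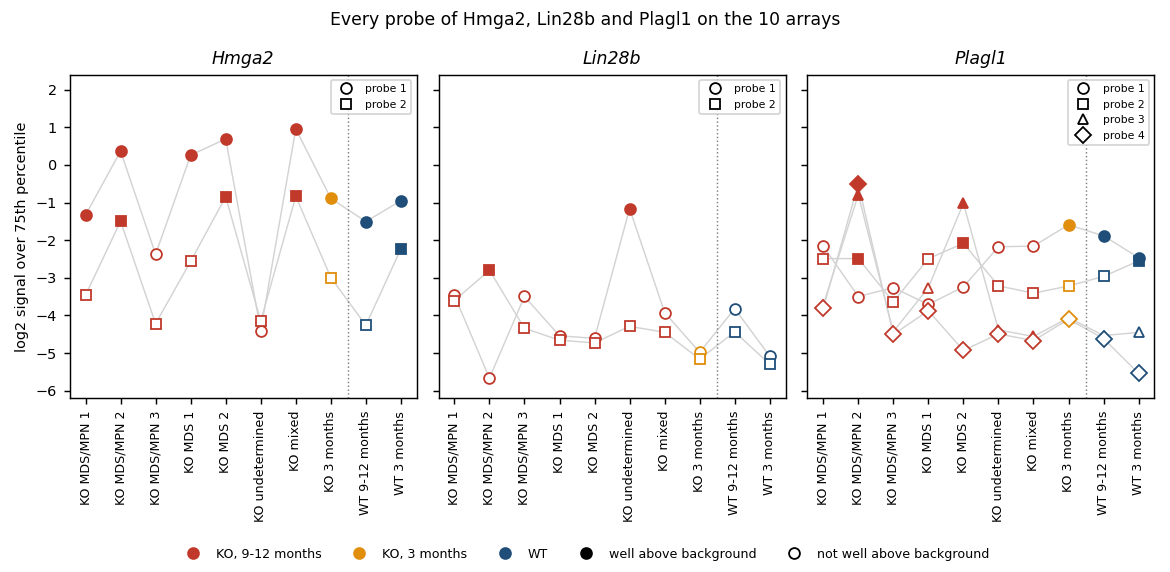
Every probe of Hmga2 (2 probes), Lin28b (2) and Plagl1 (4) on the 10 arrays, as log2 signal over the 75th percentile; filled symbols are well above background. The 2 Hmga2 probes follow each other, and the Lin28b probes are filled on different arrays. Plagl1 probes 2, 3 and 4 are all filled on MDS/MPN array 2, where probe 1 is open.

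The RefSeq promoter of Hmga2 (300 bases, from 250 before to 50 after the start; chr10:120476420-120476719, minus strand) is shown beside that of Igf2bp2 (chr16:22163250-22163549, minus strand), since CpG-rich starts are known as sites where Polycomb complex 2 settles. The capitals mark CG, the same on both strands:
Hmga2: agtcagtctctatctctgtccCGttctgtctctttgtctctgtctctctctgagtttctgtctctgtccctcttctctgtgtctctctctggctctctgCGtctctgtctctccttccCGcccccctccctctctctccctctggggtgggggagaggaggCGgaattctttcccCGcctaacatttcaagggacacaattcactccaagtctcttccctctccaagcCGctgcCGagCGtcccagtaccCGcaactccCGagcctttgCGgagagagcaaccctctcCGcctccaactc
Igf2bp2: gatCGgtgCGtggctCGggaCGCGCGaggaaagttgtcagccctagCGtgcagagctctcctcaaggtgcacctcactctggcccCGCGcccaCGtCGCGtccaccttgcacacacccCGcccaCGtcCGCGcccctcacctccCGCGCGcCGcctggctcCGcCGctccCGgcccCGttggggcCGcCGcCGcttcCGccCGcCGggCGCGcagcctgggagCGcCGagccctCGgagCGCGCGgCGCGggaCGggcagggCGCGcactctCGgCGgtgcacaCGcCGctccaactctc
The Hmga2 window held 12 CG and that of Igf2bp2 47. Of 32851 promoters, 39.6% held at least as many CG as Hmga2 and 1.44% at least as many as Igf2bp2. Among the 7 members with a promoter in the table, the other counts were 8 for Lin28b, 10 for Lin28a, 25 for Igf2bp3, 26 for Plagl1 and 40 and 38 for the 2 starts of Hmga1, against a median of 7 over all promoters. No histone mark was measured here, so the counts describe the sequences only.

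The other chromatin protein of the pair, Hmga1, was the brightest member and higher on every KO array than on either WT array. Hmga1, which is known to be abundant in dividing cells, read 8.14, 7.34 and 8.57 on MDS/MPN arrays 1 to 3, 7.53 and 7.54 on the MDS arrays, 8.82 on the undetermined, 7.33 on the mixed and 8.0 on the 3-month KO array, against 7.15 on the WT array at 9-12 months and 6.75 on that at 3 months. The lowest KO array, the mixed one, was still above the higher WT array, whereas the second probe had 6 of 8 KO arrays above both. Such a complete separation was seen for 3.18% of the 22371 features of this comparison. The faintest of its 3 probes did not show this separation, with 2 of 8 KO arrays above both WT arrays. Its mean was -2.98 on the KO arrays and -2.67 on the WT arrays, but it was well above background on only 3 of 10 arrays.

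KO minus WT for Hmga1 was 0.93 ± 0.47 log2 over both slides (limma, SE, n = 8 and 2, adjusted p = 0.950), and within the slides it was 1.25 at 3 months and 0.75 on slide 2. At 9-12 months it was 0.84 ± 0.62 (n = 6 and 1, limma adjusted p = 0.9999). Neither passed the threshold of 0.05, although the direction was positive under all alternatives run, at 0.66 to 1.25 over both slides. At 3 months, the 1.25 log2 difference of 1 array from 1 array was 0.72 after quantile normalization. MDS/MPN minus MDS was 0.48 ± 0.46 (limma, SE, n = 3 and 2, adjusted p = 0.991), and MDS/MPN array 2 lay below both MDS arrays. Quantile normalization made it 0.30, leaving out MDS/MPN array 2 made it 0.82 (limma adjusted p = 0.132) and leaving out array 3 made it 0.20. The summed level of 10 genes of dividing cells, of which 9 to 10 were well above background on KO arrays and 9 on WT arrays, was 7.55 to 9.16 log2 on KO arrays and 7.92 and 6.92 on the WT arrays. The undetermined array had the highest sum and the highest Hmga1, and the 3-month WT array the lowest of both. MDS/MPN arrays 3 and 1 and the 3-month KO array came next in both, with sums of 8.75, 8.62 and 8.47. Only the MDS arrays were placed differently in the 2 orders. The MDS arrays had sums of 7.89 and 7.55, below the WT array at 9-12 months, whereas their Hmga1 was above it. On the undetermined array Mki67, Top2a and Bub1 read 1.12, 2.29 and 0.25, against 2.45, 2.91 and 0.8 on that WT array. The other genes of the list were higher on the undetermined array than on that WT array. The part of dividing cells in the Hmga1 difference was not tested.

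Arid3a, a DNA-binding protein that let-7 is known to repress in B cell development, showed the next clearest separation. It read 0.88, 1.34 and 1.44 on MDS/MPN arrays 1 to 3, 0.91 and 0.74 on the MDS arrays, 1.67 on the undetermined, 0.24 on the mixed and 1.42 on the 3-month KO array, against 0.40 on the WT array at 9-12 months and -0.35 on that at 3 months. The mixed array was the exception that lay between the WT arrays, so 7 of 8 KO arrays were above both, a count of at least 7 that 8.41% of features reached. The second probe ordered the arrays alike, with a Pearson r of 0.98 over 10 arrays and the same 7 of 8. Of the KO arrays at 9-12 months, all 6 other than the mixed one were above the WT array of their slide, as for 9.30% of the 19595 features tested there.

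KO minus WT for Arid3a was 1.05 ± 0.43 log2 over both slides (limma, SE, n = 8 and 2, adjusted p = 0.838) and 0.77 ± 0.47 at 9-12 months (n = 6 and 1, limma adjusted p = 0.9999). The time labels of the value table made the second value 1.52. Within the slides it was 1.78 at 3 months, 1 array against 1, and 0.63 on slide 2, so the size rested on the 3-month pair. At 3 months 12.9% of features were at least 2-fold higher on the KO array and 12.2% at least 2-fold lower, with a median difference of 0.23 log2. Quantile normalization left Arid3a at 1.69 there, with the median of all features at 0.06. MDS/MPN minus MDS was 0.40 ± 0.35 (limma, SE, n = 3 and 2, adjusted p = 0.991), and the groups overlapped. The B cell sum of 10 markers, a cell type in which Arid3a is known to act, was 4.76 to 6.37 log2 on KO arrays and 4.76 and 4.35 on the WT arrays, with 3 to 9 markers well above background on KO arrays and 3 on WT arrays. Cd79b, Vpreb1 and Blnk were the markers well above background on the 3-month KO array and on both WT arrays, and Cd79a, Pax5 and Ebf1 were among those that were not. Cd79b alone read 4.56 to 5.22 on KO arrays and 4.59 and 4.21 on the WT arrays, so it made up most of the sum on the WT arrays. The neutrophil sum was 9.70 to 12.1 on KO arrays and 10.1 and 8.35 on the WT arrays. Its largest parts were Mpo and Ctsg on every array, and the later granule genes of the list did not follow it. S100a8 read 2.24 to 6.49 on KO arrays, 3.76 of them on the undetermined array, and 1.06 and 4.24 on the WT arrays. The sum thus does not count neutrophils. The part of B cells and neutrophils in the Arid3a difference was not tested.

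**Figure D3:**
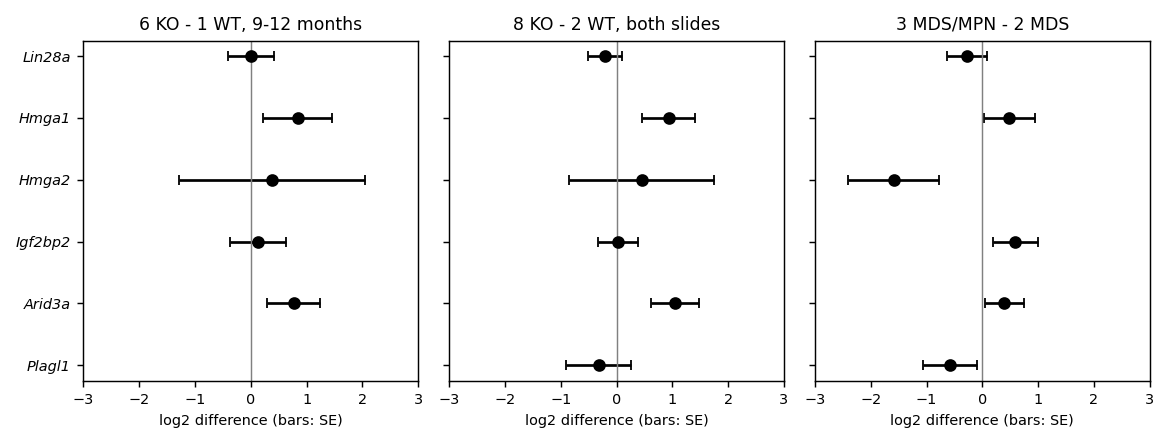
Log2 differences of the tested members in the comparisons named above each panel, from limma, with bars of 1 SE; KO minus WT at 9-12 months, KO minus WT over both slides, and MDS/MPN minus MDS. None passed an adjusted p of 0.05, and Plagl1 was not tested at 9-12 months. Arid3a and Hmga1 lie to the right of 0 in both KO comparisons, at 0.77 to 1.05 and 0.84 to 0.93.

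Among the mRNA-binding effectors, Igf2bp2 was measured on most arrays and the other two were not. Igf2bp2 read -1.15, -0.77 and -1.76 on MDS/MPN arrays 1 to 3, -1.79 and -1.85 on the MDS arrays, -1.46 on the undetermined, -1.82 on the mixed and -1.31 on the 3-month KO array, against -1.60 on the WT array at 9-12 months and -1.24 on that at 3 months. MDS/MPN array 1 was not well above background. The KO arrays surrounded the WT arrays, and KO minus WT was 0.03 ± 0.36 log2 over both slides (limma, SE, n = 8 and 2, adjusted p = 0.9997). Its direction changed with the probe, since the median over both probes gave -0.18. MDS/MPN minus MDS was 0.59 ± 0.41 (limma, SE, n = 3 and 2, adjusted p = 0.991), and 0.36 without MDS/MPN array 2. All 3 MDS/MPN arrays were above both MDS arrays, as for 7.76% of the 20732 features tested there. One of those 3 was not well above background.

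Igf2bp1 and Igf2bp3, the family members best known as fetal, were well above background on 1 array each, MDS/MPN array 2, at -3.27 and -2.66. That array was the brightest of the 10 and had the lowest limit, and these levels lay below the lowest level called on most others. Their remaining levels, from -5.12 to -3.54 for Igf2bp1 and from -5.16 to -2.51 for Igf2bp3, were not well above background. Neither passed the filter of a comparison in the fits given here.

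Plagl1 had 4 probes, of which the brightest did not follow the other 3. The brightest was well above background on the 3-month KO array at -1.59 and on the WT arrays at -1.89 (9-12 months) and -2.46 (3 months), and on none of the 7 KO arrays at 9-12 months. The next was so on MDS/MPN array 2 at -2.49, MDS array 2 at -2.08 and the 3-month WT array at -2.55. The third was so on MDS/MPN array 2 at -0.79 and MDS array 2 at -1.02, at least 2.93-fold and 2.51-fold above the WT array of slide 2. The fourth was so on MDS/MPN array 2 alone at -0.51, at least 3.58-fold above that WT array. All 3 fainter probes were thus well above background on MDS/MPN array 2, where the brightest was not. Over the 10 arrays the third probe had a Pearson r of -0.63 with the brightest, 0.70 with the second and 0.62 with the fourth, with background levels among the points. KO minus WT by the brightest probe was -0.32 ± 0.58 log2 (limma, SE, n = 8 and 2, adjusted p = 0.986), and within the slides it was 0.87 at 3 months and -1.0 on slide 2. No single direction can be given for Plagl1.

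Over all comparisons, 5 of 9 members passed the filter at 9-12 months and 6 of 9 passed it in the others, and none was called. Over all features limma called few higher: 0.0051% of 19595 features at 9-12 months and 0.00447% of 22371 over both slides, beside 0.587% and 0.00894% called lower. For MDS/MPN minus MDS limma called 0.0% in either direction, with 310 features higher and 614 lower at an unadjusted p under 0.05 among 20732. Without MDS/MPN array 2 those counts were 4090 higher and 2380 lower among 21542, and still none was called. The difference between the KO effects at 9-12 and 3 months was -1.01 ± 0.80 log2 for Arid3a, -0.41 ± 1.04 for Hmga1, 0.31 ± 2.73 for Hmga2 and 0.62 ± 0.72 for Lin28a (limma, SE, adjusted p = 0.9998 for each), beside a median of -0.23 over all features. After quantile normalization Hmga1 gave -0.02. With the time labels of the value table, Arid3a gave 1.67 and Hmga1 1.05 in this comparison.

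The pairs of single arrays have no test. Hmga2 was 2.46 log2 higher on the mixed KO array than on the WT array of its slide, a pair in which 4.51% of features were at least 2-fold higher. Between the WT arrays, 9-12 months minus 3 months, Lin28a was -0.84, Hmga2 -0.56, Arid3a 0.75 and Hmga1 0.39 log2. Of these, none reached 2-fold, while 9.91% of features were at least 2-fold higher and 14.1% at least 2-fold lower in that pair.

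The circuit's partner genes were taken from 5 lists, and no gene of any list was called in any comparison. Of 15 genes of let-7 processing and decay, 14 were tested over both slides, with a median KO minus WT of 0.09 log2 beside 0.04 for all features. Ago2, the slicing Argonaute, read 1.44, 2.38 and 5.22 as the lowest, median and highest of 8 KO arrays and 0.83 and 1.06 on the WT arrays, and Drosha, the nuclear nuclease, read 2.18, 2.75 and 3.11 on KO arrays and 2.12 and 1.77 on the WT arrays. Both were higher on 8 of 8 KO arrays (limma, adjusted p = 0.954 and 0.907), as were 3.18% of all features. The genes named from each list were picked by the size of this difference, so their separation is no support. Tarbp2, a partner of Dicer, differed by 0.62 and Tut4, the uridylating partner of Lin28, by -0.63.

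Of 26 let-7 target genes, 25 were tested, with a median of 0.43 log2, and 14 of 25 were positive, as were 53.3% of all features. Myc, a growth-promoting transcription factor, read 3.44, 4.02 and 4.63 as the lowest, median and highest of the KO arrays and 3.32 and 2.26 on the WT arrays, a difference of 0.97 ± 0.38 log2 (limma, SE, adjusted p = 0.795). E2f2, a cell cycle transcription factor, read 2.67 to 3.94 on KO arrays and 2.56 and 1.30 on the WT arrays, a difference of 1.03 ± 0.42 (limma adjusted p = 0.844). Fas, the death receptor, differed by 1.20, with 6 of 8 KO arrays and 1 of 2 WT arrays well above background, and Cdc34, a ubiquitin-conjugating enzyme, by 1.05. Myc and E2f2 were above both WT arrays on 8 of 8 KO arrays, Cdc34 on 6 of 8 and Fas on 3 of 8, beside 3.18% of all features for 8 of 8.

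Of 16 imprinted growth genes, 14 were on the array and 9 were tested, with a median of -0.69 log2. Ndn differed by -1.87 ± 0.62 (limma adjusted p = 0.663), well above background on 3 of 8 KO and both WT arrays. Cdkn1c, a CDK inhibitor of quiescent stem cells, read -1.19, 0.29 and 0.98 as the lowest, median and highest of the KO arrays and 0.97 and 3.01 on the WT arrays, a difference of -1.84 ± 0.71 (limma adjusted p = 0.784). Both were lower on 7 of 8 KO arrays than on either WT array, a count of at least 7 that 7.85% of features reached, and Dlk1 and Impact differed by -1.11 and -0.87. At 9-12 months alone the median of the imprinted list was 0.18, and the median difference between the KO effects at 9-12 and 3 months was 1.37.

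Of 10 genes linked to fetal and embryonic blood, 5 were tested, with a median of -0.12 log2, and Bcl11a, Mycn and Ptch1 differed by 0.22, -0.19 and 0.13. The list is not limited to genes higher in fetal cells, so neither its median nor the direction of Bcl11a reads as a fetal shift. Of 14 mRNAs known as Igf2bp clients, 12 were tested, with a median of 0.16. Aldh1a1 read 2.12 to 5.23 on KO arrays and 4.59 and 6.94 on the WT arrays, a difference of -1.59 (limma adjusted p = 0.950), while Cdk6 differed by 0.67 and Ptgs2 by -0.83.

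**Figure D4:**
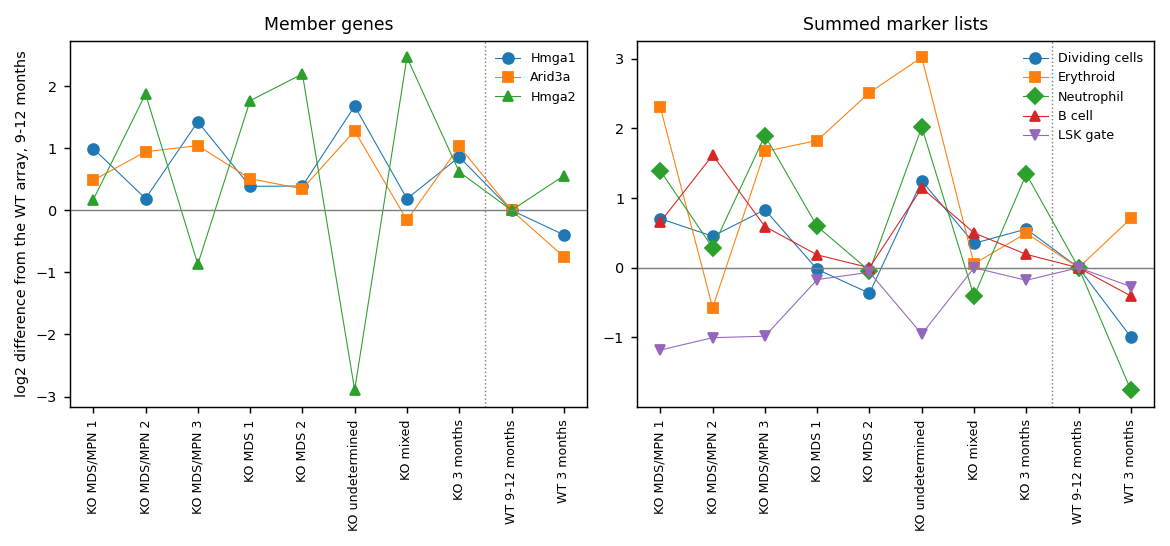
Left, Hmga1, Arid3a and Hmga2 by array; right, the summed signal of marker lists by array; both as the log2 difference from the WT array at 9-12 months, with KO arrays left of the dotted line and the lines joining arrays only to guide the eye. Hmga1 and Arid3a are highest on the undetermined array, where the dividing cell, erythroid and neutrophil sums also reach 9.16, 9.25 and 12.1 log2 and Hmga2 is lowest. The largest parts of the neutrophil sum are Mpo and Ctsg. On the MDS arrays the dividing cell sum is below that of the WT array at 9-12 months, whereas Hmga1 is above it.

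The genes whose pattern was most like that of a member over the 10 arrays, among 9708 genes measured on all of them, were Arhgdia, Psmd3 and Rnf126 for Hmga1 (Pearson r of 0.993, 0.986 and 0.986), Tep1, Mefv and Mgl2 for Arid3a (0.987, 0.970 and 0.967) and Nupr1l, Ube2e2 and Insl6 for Lin28a (0.962, 0.958 and 0.935). Hmga1 and Arid3a had an r of 0.822 with each other, which put Arid3a at rank 1500 for Hmga1 and Hmga1 at rank 314 for Arid3a. Lin28a had an r of -0.39 with Hmga1 and -0.68 with Arid3a. These points share slides and array brightness, and the values are a description.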

How the data were processed

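Each array was hybridised with 0.02 µg of Cy3-labelled RNA. The deposited scanner files hold intensity per spot, made per the file headers by Feature Extraction 10.7.1.1 (the submitters' processing notes name 9.1), together with the scanner software's flag, as a score of 0 or 1, for signals well above background. The deposited value table holds a ratio, the same intensity over the 75th percentile of the array, found by matching columns to files, and 4 of its columns carry the label of another array. It was used as an alternative only.

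Spots of a probe were averaged without control or outlier spots, and log2 of the deposited intensity minus the 75th percentile was taken, with Python 3.11.15, pandas 2.3.3, numpy 2.4.6 and matplotlib 3.10.9. RefSeq accessions named 27656 of 55681 probes through the table of GRCm38.p6. The brightest probe stood for a gene. A feature was tested when well above background on at least 50% of the arrays of 1 compared group. Tests used limma 3.58.1 in R 4.3.3 (lmFit, eBayes, Benjamini-Hochberg, threshold 0.05). The KO minus WT fits were run on simulated data with independent noise, no slide effect and large planted changes. That check does not cover slide effects or differences as small as those of the members. A group of 1 array was assumed to vary as the others. KO minus WT at 9-12 months left out the mixed array, which may hold RNA of the same mice. The fit over both slides included it and had the slide as a block. The disease comparison used MDS/MPN and MDS arrays for its spread.

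The members and the lists were chosen with earlier results of these data known. Named genes were all members, the 3 nearest patterns, and 4 genes per list by size of KO minus WT over both slides. A gene that this rule would name is not reported here. Alternatives covered normalization (quantile, and normexp with offset 50), filter, probe, eBayes setting, labels, blocks and arrays left out. Raising dim values in the Hmga2 SD was added after seeing the data. The number of arrays limits the precision.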

Additional observations from a re-analysis of the deposited data

How the results depend on the processing

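No member was called in any of 370 fits over all settings and comparisons, the lowest adjusted p being 0.119 (limma). The number of features called varied. At 9-12 months the 116 called became 250 with quantile normalization, 182 with the mixed array added, 50 without the filter and 0 with normexp, with the filter on every array, with trend and robust or with disease groups apart; leaving out arrays in turn gave 0 to 220. Over both slides the 3 called became 0 with normexp, the filter on every array, no filter or trend and robust, and 0 to 177 with arrays left out, the highest without the 3-month WT array. For MDS/MPN minus MDS 0 were called throughout, although leaving out MDS/MPN array 2 gave 4090 higher and 2380 lower at an unadjusted p under 0.05. Between the KO effects the 0 called became 192 with quantile normalization and 2 with the value table's labels. The members' directions changed as follows, the cause not tested. At 9-12 months Lin28a gave 0.016 with normexp and 0.030 with the mixed array, Hmga2 -0.18 with the value table and -0.17 with disease groups apart, and Igf2bp2 -0.27 by the median probe and -0.23 with the value table. Over both slides Igf2bp2 gave -0.18 by the median probe, -0.054 with the slide as a random block and -0.071 without it, and Plagl1 0.27 by the median probe. For MDS/MPN minus MDS Plagl1 gave 0.15 by the median probe. Between the KO effects the value table's labels gave -1.05 for Lin28a, 1.05 for Hmga1, -2.64 for Hmga2, -0.0042 for Igf2bp2 and 1.67 for Arid3a; normexp gave -0.085 for Igf2bp2 and 0.10 for Plagl1; and the median probe gave -0.21 and 0.77. With arrays left out, Lin28a ranged from -0.068 to 0.082 and Igf2bp2 from -0.0020 to 0.21 at 9-12 months; over both slides Lin28a ranged from -0.62 to 0.030, Igf2bp2 from -0.073 to 0.086 and Plagl1 from -1.0 to 0.87; and between the KO effects Hmga2 ranged from -0.052 to 0.97. No paired analysis was possible because the labels carry no replicate numbers shared between the groups.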
